A study of Mus musculus with 4 samples.

Results

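Osteoclast-like cells were picked out of 4 single-cell RNA libraries of mouse Pan02 tumours by their counts of unique molecular identifiers (UMIs, each standing for 1 captured RNA molecule). A barcode passed the filters if it held 200 or more genes and no more than 20% mitochondrial UMIs. It was a member if it also held at least 2 UMIs of Acp5, at least 2 of Ctsk, at least 2 of Mmp9, Ocstamp and Atp6v0d2 together, and under 3 of the fibroblast gene Dcn. The rule found 190 cells of the 63443 that passed. They were 42 cells of combo, 34 of anti-LIF, 96 of anti-PD-1 and 18 of control, the 4 libraries of the study.

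Osteoclasts are large multinucleated cells of the macrophage lineage that dissolve bone. Their precursors need CSF1, which signals through Csf1r, and RANKL, the product of Tnfsf11, which binds RANK, the product of Tnfrsf11a. RANK signalling switches on Nfatc1, the master transcription factor of the lineage, and the cells then fuse, pump acid outwards and release cathepsin K. Osteoprotegerin, the product of Tnfrsf11b, is a soluble decoy that keeps RANKL from its receptor. Cells with this expression have also been described in tumours away from bone, where giant cells can carry it.

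Per the labels, female C57BL/6 mice aged 6 to 7 weeks carried subcutaneous tumours of Pan02, a mouse pancreatic cancer line, and were put into groups when tumours reached about 50 mm3. The 4 groups were a control, anti-PD-1 (clone RMP1-14, against the T cell checkpoint receptor PD-1), anti-LIF (against the cytokine leukaemia inhibitory factor) and a combination of both antibodies, called combo. Rows of 4 values below follow the library order, with control first, then anti-PD-1, then anti-LIF, and combo last. The labels give 200 µg anti-PD-1 and 25 mg/kg of IgG or anti-LIF, 3 times a week, without setting out the doses of each group. Each group is 1 library that pools 3 samples, so no animal can be told from another and no test between treatments was made: intervals below cover counting error only.

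The libraries held 57720774 to 111164731 UMIs over 15046 to 20393 barcodes, and 91.4% to 94.7% of the barcodes were kept. The members were deep for these libraries. Their median UMIs were 9630, 9156.5, 7060.5 and 14576 in library order, with single cells from 588 to 45477. Kept cells of all kinds had medians of 1674.5 to 2288 UMIs. Between 247 and 325 kept barcode sequences were shared by each pair of libraries, and 8 members had such a barcode. Doublets were not called, so a member may hold RNA of more than 1 cell.

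The promoters of 4 genes are shown because these genes carry the account below: Ctsk, which the rule used, and Slc9b2, Rufy4 and Oscar, which it did not use and which were nearly silent in the macrophages that the members are compared with below. Each sequence is the 250 bases before the RefSeq start of the gene in GRCm38.p6, 5′ to 3′ on the gene's own strand. Capitals mark matches to 4 short motifs of factors known in osteoclasts, searched on both strands: AP-1 (TGANTCA), the MITF E-box (CATGTG or CACATG), PU.1 (GAGGAA or TTCCTC) and NFAT (TGGAAA or TTTCCA). The windows are chr3:95498960-95499209 (plus strand) for Ctsk, chr3:135307450-135307699 (plus) for Slc9b2, chr1:74125291-74125540 (plus) for Rufy4 and chr7:3616158-3616407 (minus) for Oscar.
Ctsk: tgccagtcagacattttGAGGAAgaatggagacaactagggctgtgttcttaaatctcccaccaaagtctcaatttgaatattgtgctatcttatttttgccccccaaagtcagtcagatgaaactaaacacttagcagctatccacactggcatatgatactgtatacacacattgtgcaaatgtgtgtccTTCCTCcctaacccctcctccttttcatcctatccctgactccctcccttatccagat
Slc9b2: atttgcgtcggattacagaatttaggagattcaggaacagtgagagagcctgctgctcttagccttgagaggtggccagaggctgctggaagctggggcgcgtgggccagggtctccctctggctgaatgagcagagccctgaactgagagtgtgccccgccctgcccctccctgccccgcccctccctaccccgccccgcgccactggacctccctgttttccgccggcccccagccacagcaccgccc
Rufy4: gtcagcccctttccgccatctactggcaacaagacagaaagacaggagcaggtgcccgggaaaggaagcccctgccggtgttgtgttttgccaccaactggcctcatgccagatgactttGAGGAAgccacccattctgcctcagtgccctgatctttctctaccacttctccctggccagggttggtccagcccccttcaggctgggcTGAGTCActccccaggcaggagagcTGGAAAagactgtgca
Oscar: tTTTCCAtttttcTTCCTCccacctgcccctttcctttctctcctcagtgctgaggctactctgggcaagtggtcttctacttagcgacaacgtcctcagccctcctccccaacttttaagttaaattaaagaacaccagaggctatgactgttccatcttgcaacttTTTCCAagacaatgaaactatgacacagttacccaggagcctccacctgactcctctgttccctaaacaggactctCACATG
The Ctsk window held PU.1 letters starting 233 and 58 bases before the start. The Rufy4 window held PU.1 letters at 130, AP-1 letters at 41 and NFAT letters at 16 bases before the start. The Oscar window held NFAT letters at 249 and 82, PU.1 letters at 237 and the E-box at 6. None of the 4 motifs was found in the Slc9b2 window. These letters are common: over 32851 promoter windows of this length, 6.75% held AP-1 letters, 12.3% the E-box, 23.3% PU.1 and 18.6% NFAT. Among promoters of genes higher in members than in C1q-high macrophages (the comparison below) the shares were 5.56%, 7.78%, 21.7% and 14.6%, against 4.63%, 7.23%, 23.2% and 15.1% over all genes tested there. For genes lower in members the shares were larger, at 6.83%, 9.71%, 27.7% and 17.2%. A match is a description of the letters and no evidence of binding.

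The genes that chose the members are given here as a description. Levels are in CPM, the UMIs of a gene summed over the members of a library, divided by all UMIs of those members and scaled to a total of 1e6. Ctsk encodes cathepsin K, the protease that cuts bone collagen (GRCm38, chr3:95499256-95509362). It stood at 9788, 11140, 5142 and 7600 CPM in library order, and the median member held 67, 71, 17 and 20 Ctsk UMIs. Taken over all members, the 2 libraries without anti-LIF thus had the higher Ctsk values by both measures. That order was not kept inside the first myeloid cluster described below. Acp5 encodes tartrate-resistant acid phosphatase, the classical enzyme stain of osteoclasts. Its median per member was 14, 12.5, 5 and 5 UMIs, and its level was 1685, 1772, 960 and 1054 CPM.

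Of the remaining osteoclast genes of the rule, the secreted gelatinase Mmp9 stood at 5318, 5380, 2784 and 3497 CPM, with UMIs in 144 of the 190 members. Ocstamp, a membrane protein needed for cell fusion, stood at 327, 388, 115 and 243 CPM, with UMIs in 120 members. Atp6v0d2, a subunit of the proton pump with a part in fusion, was the most even at 1553, 1730, 1423 and 1243 CPM, with UMIs in 186 members. The values at the rule's limits were as follows. With the rest of the rule met, 26 members held exactly 2 Acp5 UMIs while 39 cells with 1 and 67 with 0 stayed outside. For Ctsk, 10 members held exactly 2 UMIs while 38 cells with 1 and 84 with 0 stayed outside. For the 3-gene sum, 5 members held exactly 2 and 13 cells fell short, 2 of them with 1 UMI and 11 with 0. For Dcn, 11 members held 1 or 2 UMIs, and 7 cells were left out, 1 of them with 3 UMIs and 6 with more. The Acp5 limit thus touched 9 of 34 members in anti-LIF and 11 of 42 in combo, against 5 of 96 in anti-PD-1 and 1 of 18 in control. With 1 UMI of each rule gene as the limit there would be 18, 130, 84 and 96 members in library order.

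The label was checked on 8 osteoclast markers that the rule did not use: Nfatc1, Tnfrsf11a, Dcstamp (a fusion receptor), Car2 (carbonic anhydrase II, which supplies protons), Oscar (a collagen-binding co-receptor), Itgb3 (the integrin chain of the sealing zone), Calcr (the calcitonin receptor) and Siglec15. These genes vary with the genes of the rule in the same cells, so they are no independent proof of identity. At least 2 of the 8 had a UMI in 155 of 190 members (81.6%), and at least 3 in 105 (55.3%). The share with at least 3 was lowest in anti-LIF, with 9 of 34 members (26.5%), against 22 of 42 in combo, 63 of 96 in anti-PD-1 and 11 of 18 in control. Depth was not evened out here, and anti-LIF members had the lowest median UMIs (7060.5). Nfatc1 had UMIs in 165 members, Tnfrsf11a in 141, Dcstamp in 79, Car2 in 59, Oscar in 39 and Itgb3 in 38. Calcr and Siglec15, which mark mature osteoclasts, had UMIs in 2 members each. Without evening out depth, the regulator and the receptor of the lineage were thus found in most members, and 2 of the 8 markers were near 0. After the thinning described next, the receptor Tnfrsf11a was in 38.5% of members.

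Because members were deep, the shares were also taken after thinning every cell of at least 2000 UMIs to 2000, which left 179 members, 6011 of 8071 C1q-high macrophages and 3552 of 9742 cells with Cd3 UMIs. C1q-high macrophages are kept cells outside the rule with at least 6 UMIs of C1qa, C1qb and C1qc together, at least 1 of Csf1r and under 3 of Dcn. Their median before thinning was 3876 UMIs, against 10195.5 in members and 1612 in Cd3 cells. Oscar was then found in 7.26% of members (20.5% unthinned), in 0.0166% of C1q-high macrophages and in none of the Cd3 cells, which allows a share of up to 0.0845%. Dcstamp was found in 17.3% of members (41.6% unthinned), 2.05% of C1q-high macrophages and 0.338% of Cd3 cells. Tnfrsf11a was found in 38.5% of members (74.2% unthinned), 14.0% of C1q-high macrophages and 0.648% of Cd3 cells. These 3 genes were in under 1% of Cd3 cells, the type taken here to show RNA from outside the cell. Nfatc1, which T cells also use, was in 69.8% of members, 10.1% of C1q-high macrophages and 1065 of 3552 Cd3 cells, and Car2 in 12.8%, 0.333% and 6.17%. Itgb3 was in 8.38% of members, 0.582% of C1q-high macrophages and 4.19% of Cd3 cells. Calcr was in 0 of the 179 thinned members and Siglec15 in 1. Osteoblast and bone genes were close to absent: 7 of 8 (Bglap, Bglap2, Ibsp, Sp7, Alpl, Dmp1 and Sost) had 0 UMIs in all members.

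Members made up 0.667% of the kept cells of anti-PD-1 (95% Clopper-Pearson interval 0.541 to 0.814). The share was 0.256% in combo (0.185 to 0.346), 0.243% in anti-LIF (0.168 to 0.339) and 0.0966% in control (0.0572 to 0.153). The anti-PD-1 library had the largest share and the control library the smallest, and the anti-LIF and combo shares lay within each other's intervals. On the log2 scale the share relative to control was 2.79 higher in anti-PD-1 (exact 95% interval 2.05 to 3.60), 1.33 higher in anti-LIF (0.46 to 2.24) and 1.41 higher in combo (0.58 to 2.29). Combo against anti-PD-1 gave -1.38 (-1.94 to -0.84), and combo against anti-LIF gave 0.08 (-0.61 to 0.77). With cells thinned to 2000 UMIs the shares were 0.113%, 0.884%, 0.239% and 0.183% in library order, from 11, 58, 15 and 16 cells. With 1 pooled library per group, treatment, animal and dissociation cannot be told apart.

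**Figure D1:**
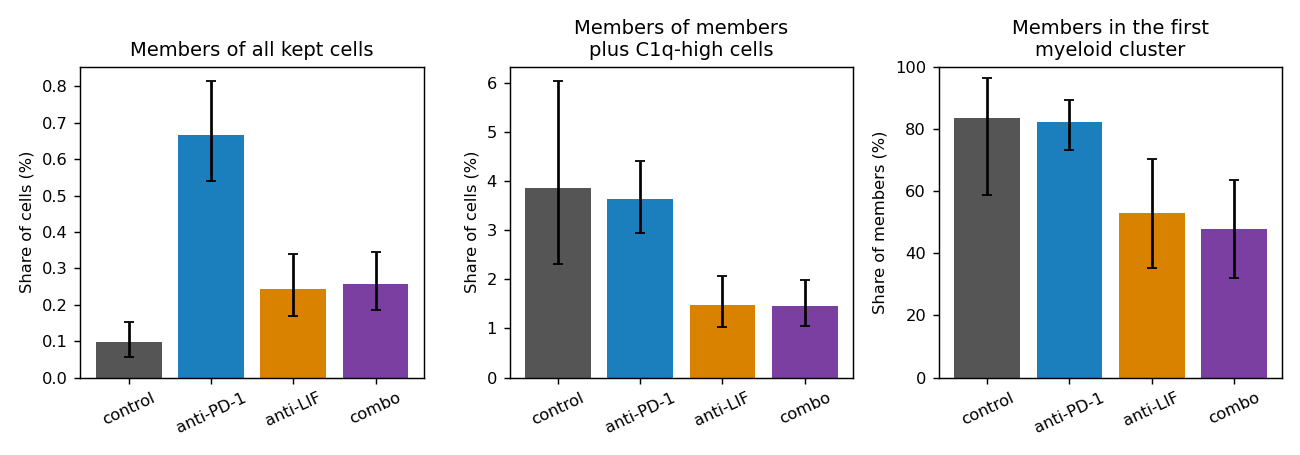
Share of osteoclast-like cells (percent, bars with exact 95% intervals from counting error) in the 4 libraries, among all kept cells on the left and among members plus C1q-high macrophages in the middle, and on the right the share of each library's members that lie in the first myeloid cluster described below. Anti-PD-1 has the largest share of kept cells (0.667%), while control and anti-PD-1 lie together above anti-LIF and combo among macrophages (3.86% and 3.63% against 1.48% and 1.47%) and in the first cluster (83.3% and 82.3% against 52.9% and 47.6%).

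The order was different when members were counted within the macrophages. C1q-high macrophages numbered 448, 2547, 2258 and 2818 in library order. Of members plus C1q-high macrophages, members were 1.47% in combo (1.06 to 1.98), 1.48% in anti-LIF (1.03 to 2.07), 3.63% in anti-PD-1 (2.95 to 4.42) and 3.86% in control (2.31 to 6.04). Relative to control the log2 ratio was -0.09 in anti-PD-1 (-0.83 to 0.73), -1.38 in anti-LIF (-2.25 to -0.47) and -1.40 in combo (-2.22 to -0.51). This share was not taken after thinning. Of the myeloid cells clustered below, members were 1.69%, 2.64%, 1.07% and 1.04% in library order, with control below anti-PD-1. Thus the share of all cells was higher in all 3 treated libraries than in control. The share of members plus C1q-high macrophages was lower in the 2 libraries with anti-LIF. Neither statement held for every setting: without members that carry markers of another cell type the combo ratio among kept cells turned to -0.72. Among macrophages, with 1 UMI of each rule gene as the limit the anti-LIF and combo ratios were -0.090 and -0.21. With at most 10% mitochondrial UMIs they were -0.39 (-2.67 to 2.86) and 0.055 (-2.02 to 3.21). That limit left 2, 19, 9 and 17 members in library order, too few in control to place these ratios.

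Markers of other cell types also differed between the libraries' members. Members with at least 3 UMIs of 1 list of T cell, fibroblast, neutrophil, cancer and epithelial, endothelial or B and plasma cell genes were 34 of 42 in combo (81.0%), 19 of 34 in anti-LIF, 29 of 96 in anti-PD-1 and 3 of 18 in control. The fibroblast list gave 2, 25, 16 and 33 of these in library order. In C1q-high macrophages the share was 44.0%, 28.7%, 37.3% and 55.8%, so combo was highest there too. The limit of 3 UMIs is easier to reach in deep cells, and combo members were the deepest. By level, the 8 fibroblast genes, all with a UMI in members, summed to 224, 203, 494 and 458 CPM in members in library order, and to 607 to 784 CPM in C1q-high macrophages. The 7 T cell genes summed to 57.3, 75.0, 75.2 and 12.1 CPM in members, the 9 neutrophil genes to 17.2 to 269 CPM with 8 of 9 detected, and the 6 cancer and epithelial genes to 53.7 to 74.5 CPM. Without such members 15, 67, 15 and 8 cells were left, and the log2 ratio of combo to control among kept cells turned to -0.72 (-2.17 to 0.61). In anti-LIF it was 0.41 (-0.72 to 1.55). The anti-PD-1 share remained the largest, at 0.466% of kept cells against 0.0805% in control. Whether these members hold RNA of more than 1 cell was not tested.

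What else set the members apart was measured by summing UMIs per library and cell group and comparing members with C1q-high macrophages over the 4 libraries (edgeR's quasi-likelihood test, library as a block, Benjamini-Hochberg adjusted p under 0.05). All genes of both rules were dropped first. The comparison describes what goes along with the rule's genes in these cells, since both cell groups were chosen by their counts. Of 10083 genes tested, 1289 were higher in members (12.8%) and 1598 lower (15.8%), with a median log2 fold change of -0.03. Without the anti-PD-1 library, which holds most of the members, 804 were higher and 991 lower.

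Most osteoclast genes of fusion and identity outside the rule were higher. Of 17 tested, 14 were higher and 1 lower, with a median log2 fold change of 3.16. The list held 20 names. Calcr and Siglec15, with UMIs in 2 members each, are on it but had too few UMIs to be tested. The farthest apart was Slc9b2, a sodium/proton exchanger known from osteoclasts (GRCm38, chr3:135307700-135345387). Its level was 722, 605, 330 and 353 CPM in members in library order, against 1.49, 0.69, 0.60 and 1.44 CPM in C1q-high macrophages. Each of the 4 member values was over every macrophage value, and the log2 fold change was 8.79 (SE 0.31, edgeR adjusted p = 1.16e-07). Rufy4, an adaptor of lysosome traffic, stood at 86.0, 139, 39.4 and 67.9 CPM in members and at 0, 0.52, 0 and 0.18 CPM in C1q-high macrophages, a log2 fold change of 8.44 (SE 0.37, edgeR adjusted p = 4.86e-07). Oscar stood at 45.8, 83.8, 0 and 52.8 CPM in members and had 4 positive cells among the 8071 C1q-high macrophages. Its 0 in the anti-LIF members allows up to 10.7 CPM, below the other 3 libraries.

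Nfatc1 followed with 1467, 1361, 620 and 873 CPM in members and 116, 64.7, 49.7 and 51.9 CPM in C1q-high macrophages. The groups did not overlap, and the log2 fold change was 3.95 (SE 0.19, edgeR adjusted p = 5.50e-07). Dcstamp stood at 126, 105, 57.3 and 107 CPM in members against 8.19, 5.26, 18.5 and 15.8 CPM, a log2 fold change of 3.16 (SE 0.37, edgeR adjusted p = 0.000154). For both the lowest member value was in anti-LIF. Jdp2, an AP-1 family factor needed in osteoclasts, was higher by 3.16, Cd109 by 4.09, Myo10 by 3.51 and Itgb3 by 3.44 on the log2 scale. Src, the kinase of the ruffled border, was higher by 2.87, Itgav, the integrin partner of Itgb3, by 1.85 and Tnfrsf11a by 1.43. Clec5a, a receptor of myeloid cells, was the 1 gene lower, by -1.36, and that call was lost without control (-1.22) or without anti-PD-1 (-0.77). Ckb, creatine kinase B, was higher by 1.05 but was not called without combo (0.73), and Rgs10 and Pstpip2 were not called at 0.23 and -0.97.

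**Figure D2:**
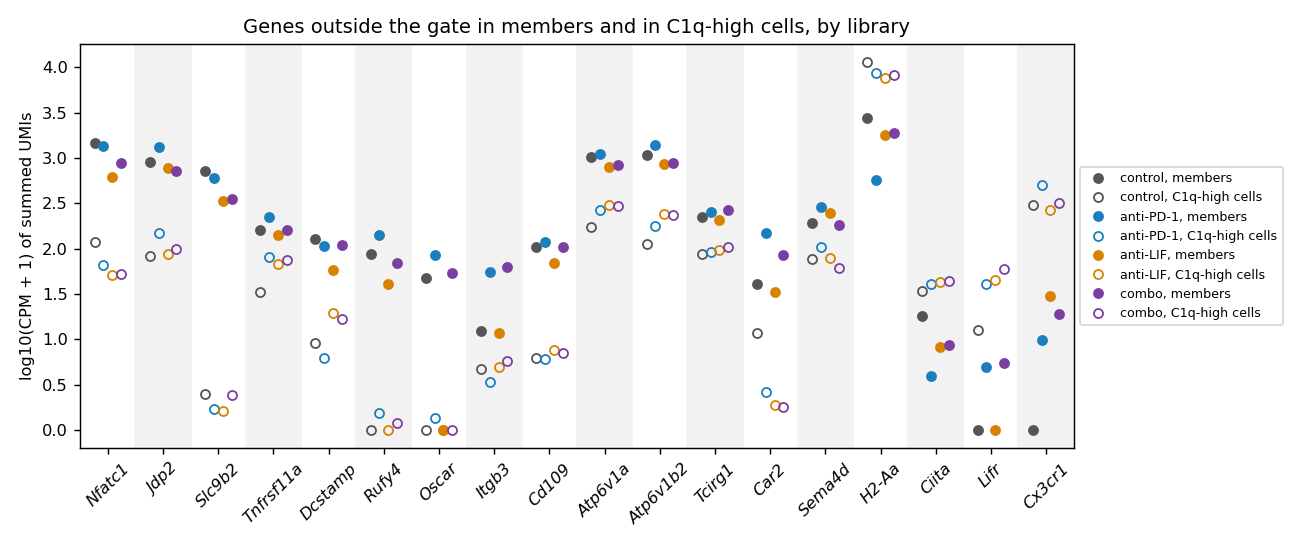
Levels of 18 genes outside the rule (log10 of CPM plus 1, y axis) in members (filled points) and C1q-high macrophages (open points), 1 colour per library. For Slc9b2 the 4 member values (330 to 722 CPM) lie far above the macrophage values (0.60 to 1.49 CPM), for Nfatc1 (620 to 1467 against 49.7 to 116 CPM) the gap is smaller but complete, and for H2-Aa the order is turned (563 to 2739 against 7538 to 11307 CPM).

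In the machinery of acid secretion 17 of 22 genes were higher and 1 lower, with a median log2 fold change of 1.34. Osteoclasts dissolve mineral by pumping protons through the V-ATPase while a chloride channel balances the charge. Atp6v1b2 stood at 1077, 1397, 860 and 885 CPM in members and 111, 177, 242 and 232 CPM in C1q-high macrophages, a log2 fold change of 2.49. Car2 was higher by 5.35, Snx10 by 2.20, the anion exchanger Slc4a2 by 2.12, Atp6v1g1 by 2.04 and Atp6v1a by 1.87. Tcirg1, the a3 subunit that is used at the ruffled border and is mutated in osteopetrosis, was higher by 1.33 (SE 0.15, edgeR adjusted p = 0.000151). Atp6v0a1, which encodes the a1 subunit of the same position in the pump, was lower by -1.62 (SE 0.34, edgeR adjusted p = 0.00475). The chloride channel Clcn7 was higher by 0.63 but lost its call when any library was left out (0.49 without control, 0.68 without anti-PD-1, 0.63 without anti-LIF, 0.66 without combo). Its partner Ostm1, Plekhm1, Atp6v0d1 and Atp6ap1 were not called, between 0.03 and 0.52.

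Mitochondrial genes went the same way, with 16 of 17 tested higher, none lower and a median of 1.40. These include the citric acid cycle enzyme Idh3a (higher by 2.12), cytochrome c (Cycs, 1.47) and the ATP synthase subunit Atp5b (1.46), while Tfam, the mitochondrial DNA factor, was not called at -0.16. The coactivator Ppargc1b, which is known to drive mitochondria in osteoclasts, was higher by 3.21. The median share of mitochondrially encoded UMIs was 11.0% to 13.6% in members and 7.24% to 8.61% in C1q-high macrophages. Its part in these values was not tested, and none of the listed genes is mitochondrially encoded.

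Of the proteases beyond Ctsk and Mmp9, which the rule used, 2 of 21 genes were higher and 7 lower, against 12.8% and 15.8% of all genes tested, with a median of -0.36, and among members without a C1q UMI these were 1 and 14. Mmp14, a membrane-bound collagenase found in osteoclasts, stood at 504, 449, 351 and 369 CPM in members against 183, 202, 119 and 113.5 CPM, higher by 1.46. The lysosomal proteases of antigen-presenting cells were lower: Ctsc by -2.79, Lgmn by -2.01 and Ctsh by -1.81. Mmp12, the macrophage elastase, was higher by 2.32 (SE 0.60, edgeR adjusted p = 0.0149). Among members without a C1q UMI it was -1.28 and not called, and without control, anti-LIF or combo it was 2.01, 2.03 and 1.76, again not called.

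The regulators of differentiation went both ways. Of 24 tested, 6 were higher and 11 lower, with a median of -0.40, and without the control library 3 were higher and 7 lower. Besides Ppargc1b, the higher ones included Prdm1 (Blimp1, a repressor of anti-osteoclastic genes), up by 2.51, and Mitf, a partner of PU.1 in osteoclasts, up by 1.95. Irf8 and Bcl6, repressors of osteoclast formation, were lower, Irf8 by -2.30 (SE 0.45, edgeR adjusted p = 0.00308) and Bcl6 by -1.25. Irf8 stood at 22.9, 15.6, 53.7 and 95.01 CPM in members against 284, 250, 187 and 168 CPM in C1q-high macrophages. Spi1, the gene of PU.1, was higher by 0.77, and that call was lost without control (0.53) or combo (0.74). Csf1r itself was not called (0.29, edgeR adjusted p = 0.228), at 926 to 1225 CPM in members and 654 to 1058 CPM in C1q-high macrophages. Tyrobp, an adaptor of the co-receptors, was not called at 0.29, and Fcer1g, the other adaptor, was lower by -1.07.

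Several lists of macrophage functions were lower in members than in C1q-high macrophages. All 7 MHC class II genes were lower, with a median of -2.53. H2-Aa stood at 2739, 563, 1767 and 1871 CPM in members against 11307, 8615, 7538 and 8120 CPM in C1q-high macrophages, with no overlap. Of 18 interferon gamma and MHC class I genes, 14 were lower and none higher (median -1.44), and Cxcl10, an interferon-induced chemokine, stood at 22.9 to 28.7 CPM against 228 to 836 CPM. Of 12 inflammatory genes 10 were lower (median -1.96), Il1b by -2.60 and Ccl2 by -3.92. Of 13 genes of alternative and resident macrophages 11 were lower (median -2.99), among them the mannose receptor Mrc1 by -2.99. Of 7 checkpoint genes 6 were lower, Cd86 by -2.79 and Cd274, which encodes PD-L1, by -1.23. The Cd274 call was lost without control (-1.13) or anti-PD-1 (-0.65). The comparison cells were chosen for C1q, and the part of that choice in these values was not tested.

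Not every macrophage list was lower. Among 14 genes of lipid-associated macrophages 3 were higher (the lipase Lpl by 2.31, Cd9 by 1.05 and Cd63 by 0.67), 2 lower and 9 not called, with a median of 0.13. Without anti-PD-1 the counts were 7 and 1, and among members without a C1q UMI they were 2 and 10, with the median turned to -1.44. The Cd63 call was lost without control (0.57), anti-LIF (0.61) or combo (0.54). Cd68 was higher by 0.55, a call lost without control (0.32), anti-LIF (0.60) or combo (0.56). Of 15 proliferation genes edgeR called 0 and DESeq2 0 in either direction, edgeR gave 0 an unadjusted p under 0.05, and the median was 0.10. Of 12 dissociation stress genes 10 were lower (median -1.42).

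**Figure D3:**
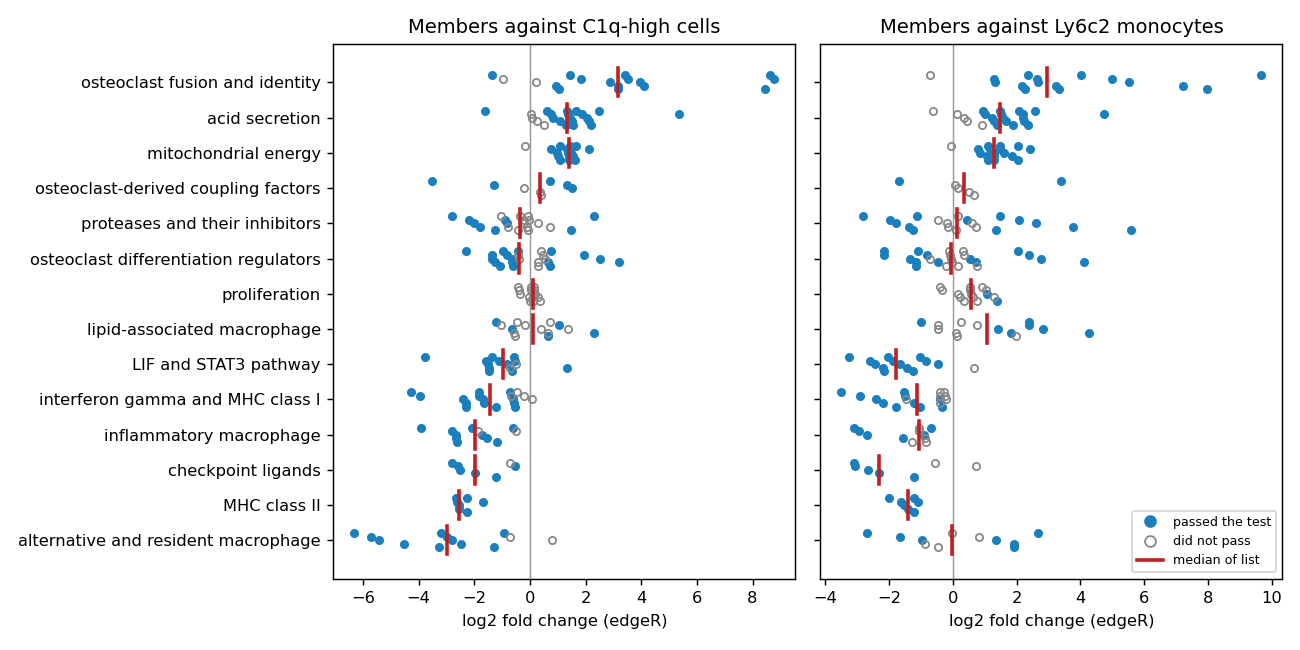
Log2 fold changes (x axis, 1 point per tested gene, filled where the test was passed) of 14 gene lists, members against C1q-high macrophages on the left and against Ly6c2 monocytes on the right, with a bar at each list's median. The medians of fusion and identity (3.16 and 2.95), acid secretion (1.34 and 1.49) and mitochondrial energy (1.40 and 1.30) lie above 0 in both, and that of MHC class II (-2.53 and -1.41) lies below 0 in both.

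Ly6c2 monocytes, of the circulating type, were the second comparison. They are kept cells with at least 2 UMIs of Ly6c2, at least 1 of Csf1r, under 3 of C1q genes and under 3 of Dcn, and numbered 749. The set also held RNA of other cell types. Its 9 neutrophil genes summed to 962, 10203, 184 and 1323 CPM in library order, and its 4 B and plasma cell genes to 1998 CPM in control. Whether members descend from these cells was not tested. Of 7504 genes tested 1280 were higher in members (17.1%) and 1421 lower (18.9%), with a median of -0.00. Fusion and identity genes were higher in 15 of 16, acid secretion in 17 of 22 and mitochondrial energy in 16 of 17, and none of these 3 lists had a gene lower. All 7 tested monocyte genes were lower (median -5.60). MHC class II was lower here too, 7 of 7 with a median of -1.41, and without combo 4 of 6. Here 7 of 20 proteases were higher and 6 lower. Alternative and resident macrophage genes had 4 of 11 higher and 3 lower (median -0.01). Macrophage genes had 4 of 9 higher and 4 lower (0.50), and lipid-associated genes 6 of 14 higher and 1 lower (1.08). Inflammatory genes had 6 of 11 lower, interferon gamma and MHC class I genes 11 of 18 and checkpoint genes 5 of 7, with 0 higher in each. With monocytes of like UMI totals, which left 2 libraries, 622 genes were higher and 724 lower, and without the anti-PD-1 library 827 were higher.

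The genes farthest apart from C1q-high macrophages also lay outside the lists. Cyp2s1, a cytochrome P450, was higher by 7.68 against C1q-high macrophages and by 7.77 against monocytes. Mst1r, the receptor kinase RON, was higher by 6.36, Myo1d by 5.88 and the dehydrogenase gene Bdh2 by 5.56. Slc14a2, a urea transporter gene, had 21 UMIs in members and 0 in C1q-high macrophages, at least 134-fold higher against a floor of 3 UMIs over all those cells. Scin, an actin-severing protein, was higher by 5.93, with 50 UMIs in members. At the other end Cd209f, a lectin of resident macrophages, had 0 UMIs in members against 4492 in C1q-high macrophages, at least 78.4-fold lower against a floor of 3 UMIs over all members. C6 was at least 21.4-fold and Cd209d at least 16.8-fold lower, the latter not called by DESeq2 (adjusted p = 0.174), and the 15 lowest genes all had 0 UMIs in members. Abcb4 was higher by 6.96 and Cspg4 at least 25.0-fold higher against monocytes.

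The members were not of 1 kind. When 11930 myeloid cells were clustered without the genes of the rule, members were 1.59% of the cells, yet a median of 86.7% of a member's 15 nearest neighbours were members. That median was 96.7%, 93.3%, 56.7% and 63.3% in library order. The first of 22 clusters, led by Slc9b2, Nfatc1, Bdh2, Cyp2s1 and Rufy4, held 132 of the 190 members (69.5%), with 52 other cells. The remaining 58 lay elsewhere: 31 in a cluster led by Mmp12, Gpnmb and Cd36, genes of lipid-laden macrophages, 22 in a cluster led by the immunoglobulin gene Iglc1 and by Ube2c and Mki67, genes of dividing cells, and 5 in others. The first cluster held 20 of 42 combo members (47.6%), 18 of 34 in anti-LIF (52.9%), 79 of 96 in anti-PD-1 (82.3%) and 15 of 18 in control (83.3%). Of the 31 members in the Mmp12 cluster 17 were in combo, 10 in anti-LIF, 3 in anti-PD-1 and 1 in control. The dividing cluster held 1 of 18 control members, 12 of 96 in anti-PD-1, 5 of 34 in anti-LIF and 4 of 42 in combo.

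**Figure D4:**
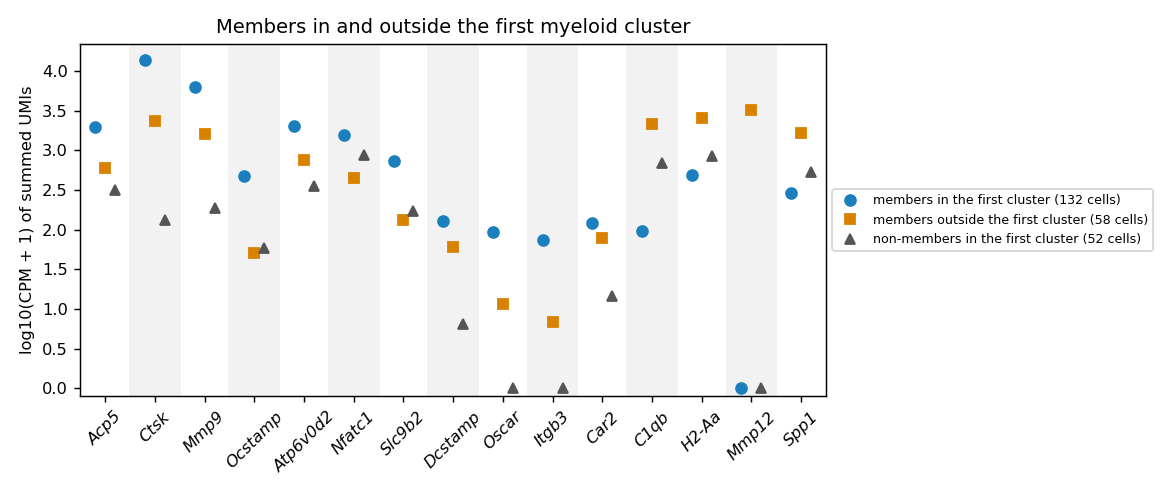
Levels of 15 genes (log10 of CPM plus 1, y axis, UMIs summed over cells of all libraries) in the 132 members inside the first myeloid cluster (circles), the 58 members outside it (squares) and the 52 other cells of that cluster (triangles). Ctsk is higher inside than outside (13612 against 2332 CPM), while C1qb (94.9 against 2134 CPM) and Mmp12 (0 against 3190 CPM) are lower inside.

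The 2 sets differed in the rule's own genes and in others. First-cluster members carried 13612 CPM of Ctsk and 1984 CPM of Acp5, against 2332 and 601 CPM in the 58 outside. Nfatc1 stood at 1560 against 452 CPM and Slc9b2 at 742 against 131 CPM. In the other direction C1qb was 94.9 against 2134 CPM, H2-Aa 495 against 2537 CPM and Mmp12 0 against 3190 CPM, the latter from 27 cells. Mmp12 was at 0 in the first-cluster members of all 4 libraries. The clusters were made from these cells' genes, so these differences carry no test.

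Inside the first cluster the Acp5 values lay closer together than over all members. Acp5 stood at 1923, 2094, 1719 and 1861 CPM in library order, and Ctsk at 10990, 14315, 9911 and 14560 CPM, with combo highest. Mmp9 was 6028, 6927, 4955 and 5611 CPM. Outside it Ctsk was 4937, 3791, 1583 and 1100 CPM and Acp5 722, 1027, 394 and 300 CPM, from 3, 17, 16 and 22 cells. Both genes were thus lower outside the first cluster than inside it in each library. Oscar still differed within it, at 42.9, 112, 0 and 106 CPM, from 6, 80, 0 and 34 UMIs. The counting intervals of control (15.7 to 93.4 CPM) and anti-LIF (0 to 30.9 CPM) overlapped. MHC class II differed too: H2-Aa stood at 1723 CPM in control and 1199 in anti-LIF, against 280 in anti-PD-1 and 175 in combo, and Cd74, the invariant chain, at 1137 and 553 against 163 and 134 CPM. The 2 libraries with anti-PD-1 had the lower H2-Aa and Cd74 in first-cluster members, from 15 to 79 cells each, a difference seen after the values were known and not tested.

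Counting only the first cluster, the share of kept cells was 0.549% in anti-PD-1 (0.435 to 0.684), against 0.122% in combo (0.0745 to 0.188), 0.128% in anti-LIF (0.0761 to 0.203) and 0.0805% in control (0.0450 to 0.133). Against control the log2 ratio was 2.77 in anti-PD-1, 0.60 in combo (-0.44 to 1.67) and 0.67 in anti-LIF (-0.40 to 1.77), and combo against anti-PD-1 was -2.17 (-2.96 to -1.45). These intervals cover counting error in 1 library each and do not show whether treatments differ.

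Members were compared between libraries by summed CPM, with no replicate and so with no test. A gene with at least 20 UMIs in both sets together was counted when it differed at least 2-fold. Combo against anti-PD-1 had 548 of 7119 genes higher (7.7%) and 532 lower (7.47%), with a median log2 ratio of -0.11. Scaled by that median the counts were 646 and 391. Lipid-associated macrophage genes were higher in 12 of 14 (median 1.99), macrophage genes in 10 of 12 (1.78), genes of alternative and resident macrophages in 9 of 11 (1.92, 1 lower), MHC class II in 5 of 6 (1.52) and proteases in 10 of 18 (1.13). Among members without a C1q UMI, 10 in combo and 53 in anti-PD-1, the counts over all genes were 179 and 275, and 0 of 11 lipid-associated, 0 of 4 macrophage and 0 of 15 protease genes were higher. Proliferation genes were lower in 6 of 15 (-0.88), and in 1 of 11, with 4 higher, when members with markers of another class were left out. Fusion and identity genes had 1 of 16 higher and 1 lower, and acid secretion genes 1 of 22 higher. Mmp12 stood at 3015 CPM from 13 combo members against 38.0 CPM from 2 anti-PD-1 members, with 97.4% of the latter in 1 cell. All 192 UMIs of Selp, an endothelial adhesion gene, in anti-PD-1 members lay in 1 cell.

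Combo against anti-LIF had 247 of 5359 genes higher (4.61%) and 229 lower (4.27%), with a median of 0.01. Lipid-associated genes had 1 of 14 higher and 1 lower, MHC class II 1 of 6 lower (5 of 5 among members without a C1q UMI), and fusion and identity 4 of 16 higher and 1 lower (median 0.53). Genes of alternative and resident macrophages had 3 of 11 higher and 1 lower, interferon gamma and MHC class I genes 3 of 14 higher and 1 lower, and proliferation genes 3 of 14 lower. All 4 monocyte genes measured were lower (median -2.36), as were both neutrophil genes (-3.72). Few anti-LIF cells carried these: Ly6c2 had 25 UMIs in 2 anti-LIF members, 84% of them in 1 cell. S100a9 had 25 UMIs in 2 anti-LIF members, 68% in 1 cell, and Hp had 25 UMIs in 5. Oscar had 35 UMIs in 7 combo members and 0 in anti-LIF, at least 4.91-fold higher, although 54.3% of those UMIs came from 1 cell. Bpifa2, a secretory gene of salivary glands, had 58 UMIs spread over 31 combo members and 0 in anti-PD-1 and anti-LIF members. Smr3a, another gland gene, had 25 UMIs in 17 combo members and 0 in anti-LIF members. The source of this gland RNA was not tested.

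The comparisons against control were added later, since its 18 members lie under the 20 first asked for, and they share those cells. Anti-PD-1 had 851 of 6110 genes higher (13.9%) and 285 lower (4.66%). Scaled by the median ratio the counts were 660 and 400, and with 5 counts added to each sum in place of 0.5 they were 33 and 869. The control members held 174492 UMIs in all and the anti-PD-1 members 1026301, so a fixed addition weighs more in control. Anti-LIF had 420 of 3234 higher (13%) and 144 lower (4.45%), and combo 678 of 4921 higher (13.8%) and 215 lower (4.37%). With 5 counts added the combo counts were 146 and 411, which turned the larger side, and those of anti-LIF 203 and 109. All 6 MHC class II genes measured were lower in anti-PD-1 members than in control members (median -2.28), and this count was 6 of 6 in each of those settings too. Of 15 proliferation genes 11 were higher there (median 1.43) but 3 with 5 counts added, and control held 1 member in the dividing cluster. Prpf19, a splicing factor, had 52 UMIs over 33 anti-PD-1 members and 0 in control, at least 2.95-fold higher.

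The ligand genes were read mainly in other cells. Tnfsf11 (RANKL) stood at 38.6, 77.2, 175 and 151 CPM in cells with Cd3 UMIs in library order, and at 3.22 to 4.14 CPM in cells rich in collagen RNA. Members held 2 Tnfsf11 UMIs in anti-LIF, 3 in anti-PD-1 and 0 in the other 2. The Tnfsf11 level in Cd3 cells was thus highest in the 2 libraries with anti-LIF. Over all kept cells it was 9.60, 5.86, 10.7 and 7.70 CPM, with combo below control. Cd3 cells numbered 6145, 1445, 905 and 1247 in library order. Csf1 stood at 208, 193, 254 and 300 CPM in collagen-rich cells and at no more than 7.17 CPM in members, and was lower in members than in C1q-high macrophages by -2.90. Tnfrsf11b, the decoy, stood at 7.28, 5.36, 17.2 and 8.58 CPM in collagen-rich cells and had 0 UMIs in members. The receptors were in the members: Tnfrsf11a at 160, 220, 140 and 160 CPM and Csf1r at 1146, 1002, 1225 and 926 CPM.

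**Figure D5:**
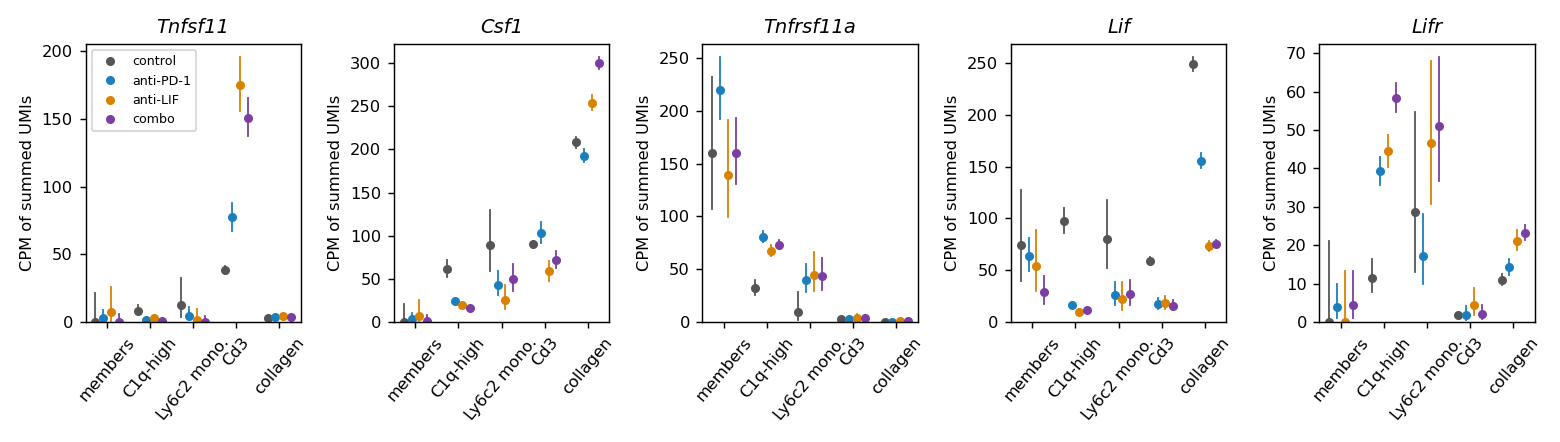
Levels of Tnfsf11, Csf1, Tnfrsf11a, Lif and Lifr (CPM of summed UMIs, y axis from 0) in members, C1q-high macrophages, Ly6c2 monocytes, Cd3 cells and collagen-rich cells, 1 point per library with its exact Poisson 95% interval. Tnfsf11 is highest in Cd3 cells (38.6 to 175 CPM), Csf1 in collagen-rich cells (193 to 300 CPM) and Tnfrsf11a in members (140 to 220 CPM).

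Lif, the gene of the cytokine that 1 of the antibodies targets, had UMIs in the members. It stood at 74.5, 63.3, 53.7 and 28.7 CPM in members in library order, from 51 cells. First-cluster members had 85.8, 89.3, 101 and 56.2 CPM, from 12, 64, 12 and 18 UMIs, with overlapping counting intervals. Members outside that cluster had 28.9, 3.23, 18.8 and 2.92 CPM, from 1, 1, 3 and 1 UMIs. The order over all members was thus not kept inside the first cluster. C1q-high macrophages had 97.9, 16.7, 10.1 and 11.4 CPM, so members were over macrophages in the 3 treated libraries and under them in control. The log2 fold change over the 4 libraries was 1.34 (SE 0.37, edgeR adjusted p = 0.0204), and the call was lost without anti-PD-1 (0.99), anti-LIF (1.07) or combo (1.29). Ly6c2 monocytes had 79.9, 26.0, 22.5 and 26.7 CPM of Lif. Against them 13 of 14 tested genes of LIF and STAT3 signalling were lower in members and 0 higher. Cd3 cells, taken above to show RNA from outside the cell, had 58.7, 17.5, 17.9 and 15.8 CPM. The counting interval of the members held the Cd3 value in control (39.7 to 127 CPM) and began above it in anti-PD-1 (48.9) and anti-LIF (30.1), and in combo it began at 17.3 CPM. How much of the members' Lif came from outside the cells was not tested. Collagen-rich cells had 249, 156, 73.2 and 75.6 CPM, more than members in each library. The receptor chain Lifr had 4 UMIs in anti-PD-1 members, 3 in combo and 0 in the other 2, and was lower than in C1q-high macrophages by -3.76 (SE 0.40, edgeR adjusted p = 8.81e-05). Of 14 tested genes of LIF and STAT3 signalling 11 were lower and 1, Lif itself, higher in members, Stat3 by -1.50 and Socs3, a STAT3 target, by -1.36, and Il6st, the shared receptor chain, was not called at -0.51. Of the factors by which osteoclasts are known to signal to other cells, Sema4d was higher by 1.53 and Pdgfb by 0.73, Bmp2 lower by -3.52 and Efnb2 by -1.27, and 3 of 8 were not called. The Pdgfb call was lost without anti-LIF (0.54) or combo (0.67). The Efnb2 call was lost when any library was left out (-0.95 without control, -1.70 without anti-PD-1, -1.43 without anti-LIF, -1.29 without combo).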

How the data were processed

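Each deposited matrix gives a count of UMIs for every gene in every barcode, in whole numbers and unnormalized, per the file headers and values. The labels' protocols name a SeekOne MM 3' kit. The submitters' processing notes name mm10 and Seurat 4.0.3, and the aligner, counter and cell calling are not given in the sources used here. Barcodes and gene names were deposited as other, non-numeric lists. Depth per library is in the report.

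Members were found by the rule stated there. The members, lists and comparisons were chosen with earlier results of these data known. UMIs were summed per library and cell group, with all rule genes dropped, scaled by TMM, kept by filterByExpr and tested in edgeR 4.0.16 with the library as block. DESeq2 1.42.0 was an alternative. Cells with Cd3 UMIs hold at least 2 Cd3 UMIs, no Csf1r and under 3 Dcn. Collagen-rich cells hold at least 10 collagen and 3 Dcn UMIs. Clusters are Leiden clusters in scanpy 1.11.5. Between libraries, 0.5 counts were added to each sum. Osteoclast list genes and the 15 highest and lowest against macrophages (5 against monocytes) were named by rule. Examples from other lists and the promoters were chosen after their values were seen. The edgeR step was tested on simulated data. Positions come from GENCODE M21 and promoters from RefSeq. Doublets were not called.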

Additional observations from a re-analysis of the deposited data

How the results depend on the processing

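Ratios here are log2 and counts are genes. Counting members at 1 UMI or more of each rule gene gave 2.63 for anti-LIF and 2.60 for combo against control and -0.63 for combo against anti-PD-1. Allowing at most 10% mitochondrial UMIs gave 2.31, 2.90 and -0.58, with 2 control members left. Thinning gave -2.27 for combo against anti-PD-1, and first-cluster members gave -2.17. Leaving out members with markers of another class gave 0.41 for anti-LIF, -0.72 for combo, -3.25 for combo against anti-PD-1 and -1.13 against anti-LIF. Within members plus C1q-high macrophages the 1-UMI rule gave -0.090, -0.21 and -0.54 for anti-LIF and combo against control and combo against anti-PD-1. The mitochondrial limit gave -0.39, 0.055 and -0.48, the second with its sign turned but an interval of -2.02 to 3.21. Leaving out marker-bearing members gave -2.30, -3.52 and -3.18, with -1.22 for combo against anti-LIF.

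Against C1q-high macrophages, leaving out each library in turn gave 804 to 993 genes higher and 991 to 1360 lower, and against monocytes 827 to 1088 and 973 to 1260. Against monocytes DESeq2 gave 835 higher, and cells of like UMI totals gave 622 higher and 724 lower. With no filter on low counts 1033 genes were higher and 2073 lower than in C1q-high macrophages. Combo against anti-PD-1 had 193 lower with 5 counts added, and 179 higher and 275 lower without C1q-bearing members. Combo against anti-LIF had 390 higher and 363 lower by the mean over cells, 97 and 71 without marker-bearing members, 38 higher with 5 counts added and 115 higher without C1q-bearing members. In members without a C1q UMI Mmp12 against C1q-high macrophages turned to -1.28 and Ctsl against monocytes to -0.38. The next totals cover the single genes named and the comparisons of members with control. In them 171 values lost their call, 58 gained one, 2 called genes reversed and 15 counts moved over 1.5 times. A further 2972 were scored as unchanged, meaning that the call was kept or a count stayed within 1.5 times. That group also holds genes without a call in the main fit, even where their sign turned. No paired analysis was possible because each group has 1 library. The library was the block in the edgeR fits.

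Depth limits what is seen: 18 control members held 174492 UMIs, and 0 UMIs there allow a level of up to 17.2 CPM. The alternatives on barcodes shared between libraries, on C1q-free members and on the first cluster were chosen after seeing the data.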
